A study of Mus musculus with 8 samples.

Results

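The genes for proteins of the cytosolic ribosome were examined in dermal fibroblasts of old and young mice. Members were all genes on the array whose symbol follows the naming of ribosomal proteins (Rpl or Rps with a number, Rplp0 to Rplp2 and Rpsa, without the Rps6k kinases) and that had a probe set with exactly 1 symbol. This gave 70 genes among the 17097 genes measured: 24 of the small subunit, 38 of the large subunit, 3 of the P-stalk and 5 paralogs. Each gene was read from its brightest probe set over all 8 arrays. A further 13 ribosomal protein symbols, among them Rps3, Rps27 and Rpl5, had no such probe set and were not analysed here.

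Each array held fibroblasts of 1 male C57Bl/6 mouse, from 4 old mice of 18 months and 4 young mice of 2 months; 2 old and 2 young mice were taken per collection day. The labels name no altered gene and no agent in either group. The cells came from collagenase-digested skin freed of its subdermis and were sorted as positive for Pdgfra and CD34 and negative for CD45, CD117, CD24, CD31 and EpCam. RNA of 5000 cells per mouse was amplified in 21 cycles before hybridisation, so each array reports the relative abundance of transcripts in sorted cells and not the amount of RNA per cell. The values are log2 expression values, in which a difference of 1 is a doubling, and they are compared between mice for a single probe set and never between genes.

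The ribosome is built of a small subunit, which reads the messenger RNA, and a large subunit, which joins amino acids, and each ribosomal protein is present in roughly equal number in the assembled particle. Their messenger RNAs are among the most abundant in any dividing or secreting cell and are known for starting with a terminal oligopyrimidine tract, an uninterrupted run of C and T letters by which the mTOR pathway controls their translation as a class. In fibroblasts ribosomes supply the synthesis of matrix proteins. Excess ribosomal proteins such as Rpl11 are known to bind Mdm2, the ubiquitin ligase of p53, which links ribosome assembly to growth arrest.

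The letters around the annotated transcription start are shown first because they are the feature for which this class is known and which the naming rule did not use. RefSeq start windows (build GRCm38.p6) were found for 56 of the 70 members. The sequences below reach from 15 bases before the start to 15 bases from it on, on the strand of the gene, and capitals mark the run of C and T that holds the annotated start base. The first 4 belong to members with negative differences between the ages of -0.23 to -0.17. The next 4 belong to members with differences of -0.058 to 0.02. The last 2 belong to the paralogs with the largest differences, which have no run of at least 7 letters across the start base. For Rps27l the first of its 2 listed starts is shown, and a run of C and T ends before that start base.
Rpl7a: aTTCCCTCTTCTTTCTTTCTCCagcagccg
Rps18: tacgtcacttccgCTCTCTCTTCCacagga
Rps10: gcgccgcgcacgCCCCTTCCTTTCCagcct
Rps21: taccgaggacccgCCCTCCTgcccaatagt
Rps6: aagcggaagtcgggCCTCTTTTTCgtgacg
Rpl15: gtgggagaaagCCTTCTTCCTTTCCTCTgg
Rps9: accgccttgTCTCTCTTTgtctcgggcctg
Rplp2: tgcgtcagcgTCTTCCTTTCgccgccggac
Rps27l: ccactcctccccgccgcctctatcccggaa
Rpl7l1: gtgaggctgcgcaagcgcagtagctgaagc
They lie at chr2:26910792-26910821 for Rpl7a, chr17:33955651-33955680 for Rps18, chr17:27635230-27635259 for Rps10, chr2:180257364-180257393 for Rps21, chr4:86857353-86857382 for Rps6, chr14:18270972-18271001 for Rpl15, chr7:3704026-3704055 for Rps9, chr7:141447636-141447665 for Rplp2, chr9:66946071-66946100 for Rps27l and chr17:46782642-46782671 for Rpl7l1. Rps18, Rps10, Rps6, Rpl15 and Rpl7l1 are on the minus strand and the others on the plus strand.

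A run of at least 7 letters of C or T across the start base was present in 17 of the 56 members, or 30.4%, against 6.22% of all 27025 genes with a start window. The run was searched on the strand of the gene alone, and annotated starts can lie some bases from the true start. The letters CCGGAAG, a core of sites for ETS factors, were searched on either strand. The window was 300 bases, 250 before the start and 50 from it on. CCGGAAG was present in 25 of the 56 members, or 44.6%, against 9.93% of the 27025 genes. These 27025 genes include some that were not measured here. Members with the run had a median difference of -0.078 between old and young and those without it -0.043. Single genes ranged from -0.23 to 0.29 among the 17 with the run and from -0.39 to 0.16 among the 39 without it, and the difference between the medians was not tested.

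With age as the only term, no ribosomal protein gene passed the test between old and young mice. In limma, 0 of the 70 members had an adjusted p under 0.05, where 3.97% of all genes did, and the lowest adjusted p of a member was 0.105. At a looser adjusted p under 0.1 the count was also 0, against 6.33% of all genes. At an unadjusted p under 0.05 stood 6 members, or 8.57%, against 15.1% of all genes. The differences themselves were small: the old minus young value ran from -0.39 to 0.29, with a median of -0.046 against 0.01 over all genes, and was under 0.2 in size for 61 members, or 87.1%, against 78.7% of all genes. The 95% interval of the difference stayed within 1 log2 unit of 0 for all 70 members and within 0.5 for 63. In bulk samples of sorted cells, a lower level in each cell and a smaller share of cells that carry the transcript cannot be told apart.

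**Figure D1:**
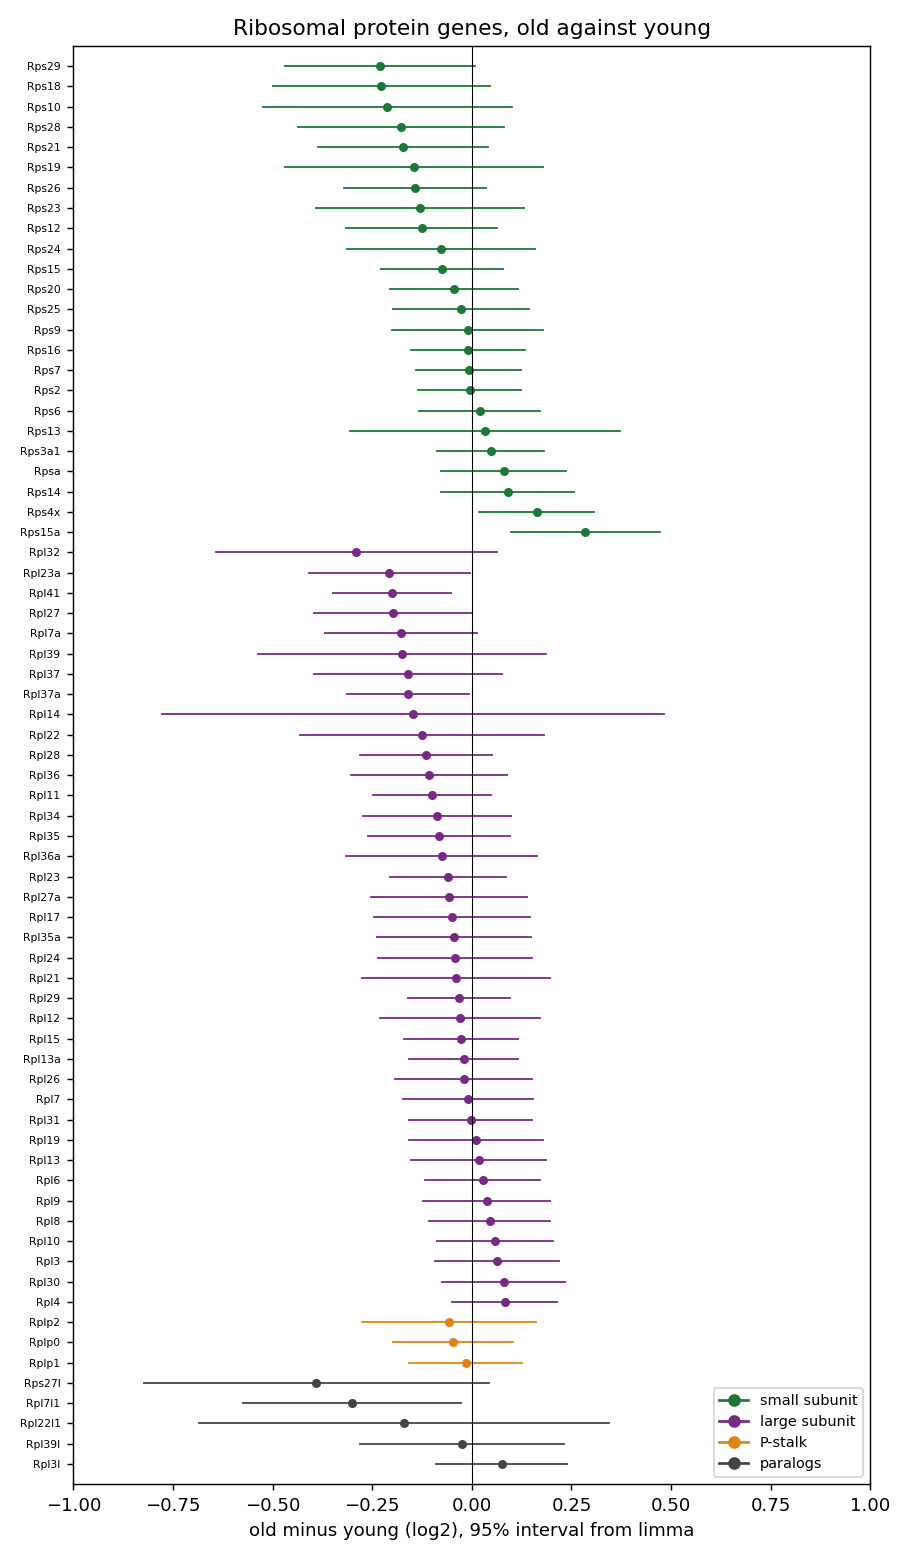
Old minus young difference (log2, horizontal axis) of each of the 70 members, sorted within small subunit, large subunit, P-stalk and paralogs; points are limma estimates and lines 95% intervals (4 old and 4 young mice). Nearly all points lie between -0.3 and 0.3, and intervals that leave out 0 are few.

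Members with a negative difference outnumbered those with a positive one, by 53 to 17 (75.7% negative, against 46.8% of all genes). The excess was alike in the small subunit, where 17 of 24 were negative with a median of -0.036, and in the large subunit, where 29 of 38 were negative with a median of -0.048. It rested largely on 1 animal: without young replicate 4 the split was 39 to 31 and the median -0.0071, and leaving out the other mice in turn gave medians between -0.079 and -0.029. The samples' titles carry numbers in 2 unbroken runs of 4 mice, and the labels do not say whether these are the collection days. Within these runs, the median was -0.03 in the first (old and young replicates 1 and 2) and -0.07 in the second (replicates 3 and 4).

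Groups did not overlap for 5 members, or 7.14%, against 9.7% of all genes: Rpl41, Rpl37a, Rpl7a, Rps4x and Rps15a. Rpl41, the smallest protein of the large subunit, had 12.22, 12.29, 12.29 and 12.22 in old mice, against 12.45, 12.40, 12.39 and 12.58 in young mice. All old mice lay below all young mice, with a difference of -0.20 ± 0.07 (SE) and a limma adjusted p of 0.158. Its other 3 probe sets differed by -0.31 to -0.15.

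Rpl37a, a short zinc-binding protein of the large subunit, had 12.02, 12.10, 12.20 and 12.18 in old mice and 12.26, 12.26, 12.24 and 12.38 in young mice. The gap between the groups was narrow, and the difference of -0.16 ± 0.07 (SE) had a limma adjusted p of 0.30. Rpl7a, another large subunit protein, averaged 10.53 ± 0.05 in old and 10.71 ± 0.16 in young mice (SD, n = 4 each), a difference of -0.18 with a limma adjusted p of 0.372.

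Rps4x, the X-linked form of a small subunit protein, went the other way, with 11.27, 11.23, 11.36 and 11.34 in old mice against 11.09, 11.08, 11.19 and 11.19 in young mice. All 4 old mice lay above the young mice, by 0.16 ± 0.06 (SE), and the gene did not pass (limma adjusted p = 0.251). The difference was 0.17 within the first run of title numbers and 0.16 within the second. The other X-linked members, Rpl10, Rpl36a and Rpl39, had differences of 0.058, -0.075 and -0.18. A second probe set of Rpl10, with a mean of 10.95, differed by 0.16 (limma adjusted p = 0.248 with each probe set on its own). The second probe set of Rpl39, with a mean of 6.92, differed by 0.015.

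Rps15a had the lowest adjusted p of the members (0.105 in limma), on a dim probe set. It read 4.77, 4.53, 4.54 and 4.62 in old mice and 4.28, 4.32, 4.49 and 4.23 in young mice. These values lie below 5.10, the median of all probe sets' means, so they may hold little signal of the transcript, and the gene had no other probe set with a single symbol. The other member below that level was Rpl3l.

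**Figure D2:**
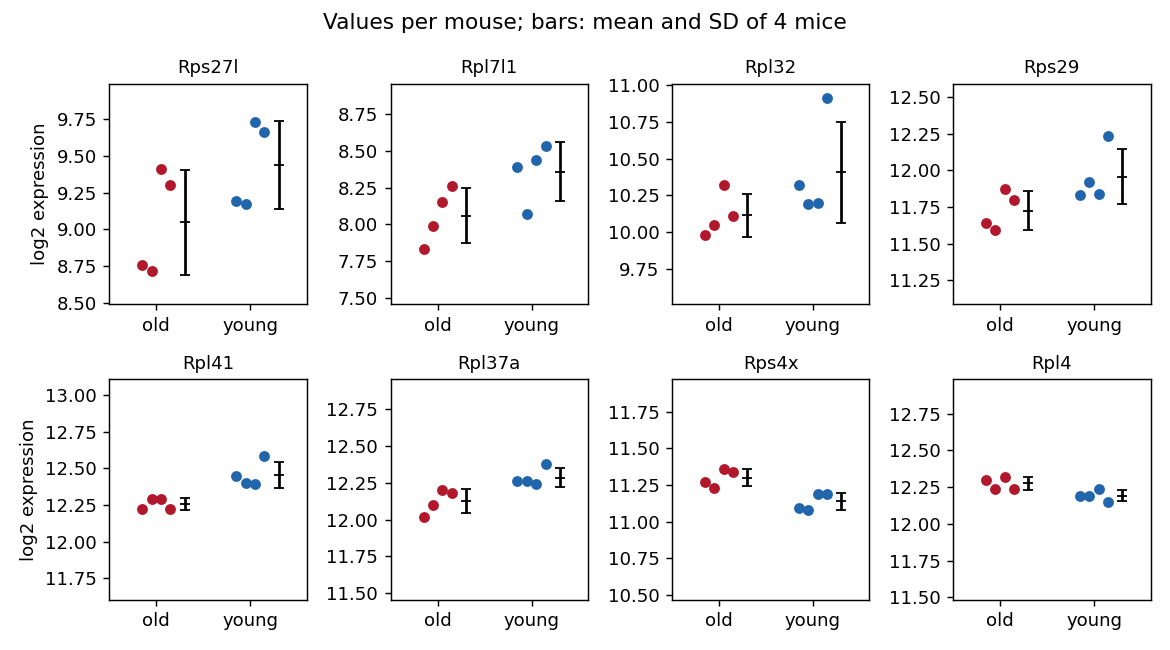
Log2 expression of 8 members in each mouse (old left, young right; all panels span the same range), with the mean and SD of 4 mice beside the points. Rpl41 and Rps4x show groups that do not overlap, Rpl32 and Rps29 a single high young mouse, and Rps27l a pair of lower and a pair of higher mice within each age.

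In the small subunit, the larger negative differences belonged to Rps29, Rps18 and Rps10, from -0.23 to -0.21. Rps29, a short zinc-binding protein of the small subunit's head, had 11.64, 11.59, 11.87 and 11.80 in old mice and 11.83, 11.92, 11.84 and 12.23 in young mice. The groups overlapped, young replicate 4 was the highest of all, and the limma adjusted p was 0.349. Rps10, near the entry of the mRNA, averaged 10.92 ± 0.07 in old and 11.14 ± 0.32 in young mice (SD, n = 4 each), and its 3 probe sets disagreed, with differences of -0.21, -0.0075 and, for one with a mean of 5.58, 0.32. Without young replicate 4 its difference was -0.071, and that of Rps29 was -0.14.

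Rps18, in the head of the small subunit, had 10.03 to 10.18 in old mice and 10.36, 10.11, 10.17 and 10.70 in young mice (limma adjusted p = 0.444). Old mice lay close together here, and young replicate 4 set the upper end, without which the difference of -0.23 became -0.11. Positive differences were seen for Rps14, 0.09 (limma adjusted p = 0.679), and for Rpsa, also known as the laminin receptor precursor, 0.08 (limma adjusted p = 0.705). The smallest differences were those of Rpl31, Rps2 and Rps7. Rps2, at the mRNA entry channel, averaged 12.89 ± 0.03 in old and 12.89 ± 0.03 in young mice (SD, n = 4 each), and the 95% interval of its difference reached from -0.13 to 0.12. Rps7, also of the small subunit, averaged 11.60 ± 0.03 in old and 11.61 ± 0.05 in young mice (SD, n = 4 each).

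In the large subunit, Rpl32 had the largest negative difference, -0.29 ± 0.16 (SE, limma adjusted p = 0.455). Its values were 9.98, 10.05, 10.32 and 10.11 in old mice and 10.32, 10.19, 10.20 and 10.91 in young mice. The other young mice lay within the range of the old mice, and the value of 10.91 in young replicate 4 stood apart. Without that mouse the difference was -0.12. Rpl23a, at the exit of the peptide tunnel, averaged 11.12 ± 0.07 in old and 11.33 ± 0.17 in young mice (SD, n = 4 each; limma adjusted p = 0.312), and its difference of -0.21 was -0.13 without young replicate 4.

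On the brightest probe set of each gene, positive differences in the large subunit were at most 0.083, in Rpl4. This gene, whose protein reaches into the peptide tunnel, had 12.30, 12.24, 12.32 and 12.24 in old mice and 12.19, 12.19, 12.24 and 12.15 in young mice. The 2 groups touched at 12.24, and the limma adjusted p was 0.607. Rpl30 followed with a difference of 0.08 and Rpl3, which reaches to the peptidyl transferase centre, with 0.063, old above young mice, and Rpl31 differed by -0.0025. Rpl11, known to bind Mdm2 when ribosome assembly fails, averaged 11.07 ± 0.05 in old and 11.17 ± 0.08 in young mice (SD, n = 4 each; limma adjusted p = 0.565).

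The P-stalk, the flexible arm that recruits elongation factors, showed no member past the threshold. Rplp0, its base, averaged 11.94 ± 0.03 in old and 11.98 ± 0.09 in young mice (SD, n = 4 each), Rplp1 10.87 ± 0.07 and 10.88 ± 0.04, and Rplp2 10.66 ± 0.11 and 10.72 ± 0.17. The 95% intervals of the 3 differences lay between -0.28 and 0.16. Unlike most members, Rplp0 had its lowest value of all mice in young replicate 4 (11.86).

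The 2 largest negative differences of all members were in paralogs, that is in second copies of ribosomal protein genes. Rps27l, a close copy of Rps27 known as a target of p53, had 8.76, 8.72, 9.41 and 9.30 in old mice, against 9.19, 9.17, 9.73 and 9.66 in young mice. Replicates 1 and 2 were lower than replicates 3 and 4 at both ages. The difference was -0.39 ± 0.19 (SE) with a limma adjusted p of 0.392, and it measured -0.44 within the first run of title numbers and -0.34 within the second, with all old below all young mice in each.

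With the run of title numbers as a block of 2 levels, Rps27l was the 1 member of 70 that passed, where 5.38% of all genes did (-0.39 ± 0.06, SE; limma adjusted p = 0.00816). With that block its adjusted p lay between 0.0104 and 0.039 when single mice were left out. Its 3 probe sets differed by -0.62 to -0.39. Those ending in _x_at hold probes that can also match other transcripts, which for this gene could include its close copy Rps27. With every probe set tested on its own and the same block, an alternative chosen after seeing the data, all 3 passed (limma adjusted p = 0.00906, 0.0115 and 0.0189), among 5 of 133 member probe sets and 4.81% of all probe sets that did.

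Rpl7l1, a nucleolar copy of Rpl7 with a part in ribosome assembly, had 7.83, 7.99, 8.15 and 8.26 in old mice and 8.39, 8.07, 8.44 and 8.53 in young mice. Only young replicate 2 lay within the range of the old mice. The difference was -0.30 ± 0.12 (SE; limma adjusted p = 0.268, or 0.086 with the title number block), and its 3 probe sets differed by -0.30 to -0.24. Rpl22l1, the paralog of Rpl22, ranged from 6.44 to 7.34 in old and from 6.76 to 7.55 in young mice, and its spread was among the 3 widest of the members, with Rpl14 and Rps27l. Rpl14, a large subunit protein on a rather dim probe set, had 5.15, 5.42, 6.33 and 6.13 in old mice and 5.82, 5.38, 6.08 and 6.34 in young mice, with full overlap. Rpl39l averaged 9.04 ± 0.20 in old and 9.06 ± 0.16 in young mice, and Rpl3l, known from muscle, was dim at 4.83 ± 0.09 and 4.76 ± 0.08 (SD, n = 4 each).

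Among themselves the members moved together from mouse to mouse. After each gene was centred on the mean of its age group, a single axis held 71.5% of the variance of the 70 members, and 62 of them had the same sign on it. Over all genes the first such axis held 38.6%. Genes were not scaled to equal spread, so those with a wide spread weighed more in these shares. Among the members these were above all Rpl14, Rpl22l1 and Rps27l. On the members' axis young replicate 4 had the highest score, 0.63, followed by old replicate 3 with 0.43, and old replicate 1 and young replicate 2 had the lowest, -0.36 each.

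As deviations from each gene's own mean over the 8 arrays, the members had medians of -0.053, -0.077, 0.063 and -0.022 in old replicates 1 to 4 and of -0.017, -0.048, 0.013 and 0.19 in young replicates 1 to 4. The ages overlapped, and young replicate 4 stood above the rest. Over all genes these medians stayed between -0.028 and 0.019. Young replicate 4 held the highest young value in 53 of the 70 members (75.7%, against 26.1% of all genes), and old replicate 3 the highest old value in 53 (75.7%, against 22.0%).

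**Figure D3:**
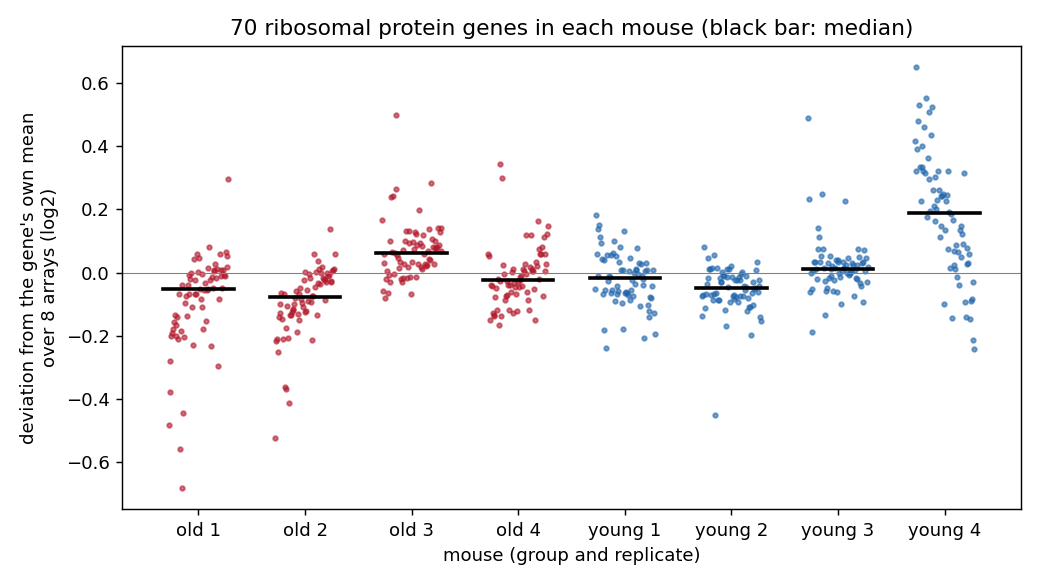
Deviation of each of the 70 members from its own mean over the 8 arrays (log2, vertical axis) in each mouse, old mice left and young mice right, with the median as a black bar. The median is 0.19 in young replicate 4 and between -0.077 and 0.063 in the other 7 mice.

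Array measures moved with this shared shift. The difference between the 3' and 5' control probe sets of beta-actin, a measure of how evenly transcripts were copied, was -0.61, -0.66, -0.51 and -0.53 in old replicates 1 to 4 and -0.61, -0.61, -0.55 and -0.41 in young replicates 1 to 4. The highest value, in young replicate 4, and the next, in old replicate 3, belonged to the mice with the highest members. The same measure for Gapdh ran the other way, with its lowest values in young replicate 4 (-0.21) and old replicate 3 (-0.13). Their part in the result was not tested.

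**Figure D4:**
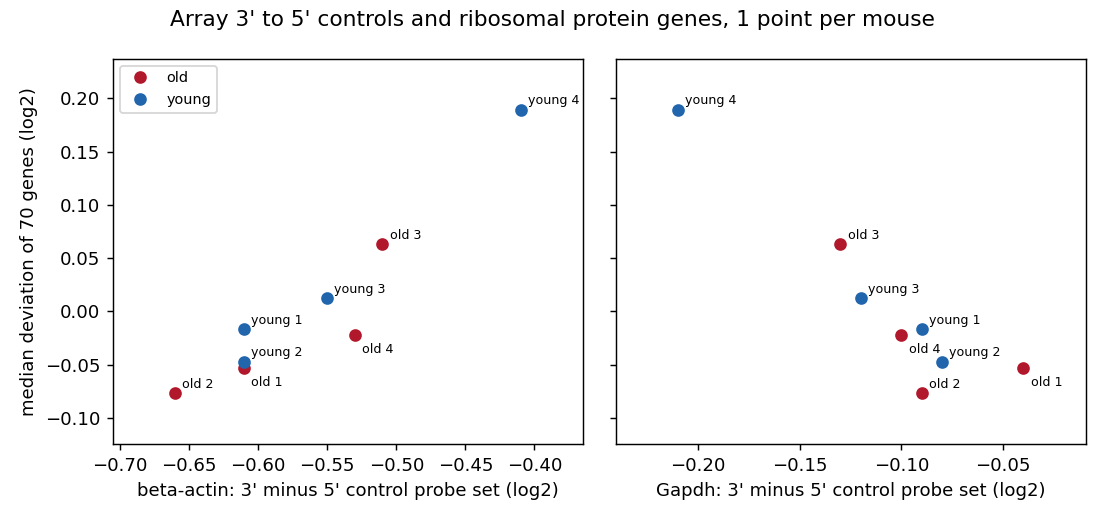
Median deviation of the 70 members (log2, vertical axis) against the 3' minus 5' difference of the beta-actin (left) and Gapdh (right) control probe sets (log2, horizontal axes), 1 point per mouse, old in red and young in blue. Young replicate 4 lies at the end of both panels, at -0.41 for beta-actin and -0.21 for Gapdh.

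Keratinocyte markers also differed between mice: the mean of the 10 measured of 11 was 5.65, 5.45, 6.89 and 5.89 in old replicates 1 to 4 and 5.45, 5.31, 5.24 and 5.87 in young replicates 1 to 4. Old replicate 3 was highest among old mice and young replicate 4 among young mice, as for the ribosomal protein genes. In limma none of these 10 markers was called, with 2 below 0.05 before adjustment, 6 lay above the median probe set level of 5.10, and their part in the result was not tested. Fibroblast markers (11 of 11 measured) had means of 10.55 to 10.71 in old and 10.71 to 10.82 in young mice, and 2 of them fell, Fbln1 and Thy1. Of the genes of the gate, Cd34 averaged 11.01 ± 0.04 in old and 10.82 ± 0.06 in young mice and Ptprc, which encodes CD45, 3.51 ± 0.07 and 3.43 ± 0.03 (SD, n = 4 each). Epcam averaged 5.45 ± 0.19 in old and 5.05 ± 0.08 in young mice (SD, n = 4 each). Pecam1 (CD31) averaged 6.06 ± 0.21 and 5.89 ± 0.16, and Kit (CD117) 3.82 ± 0.03 and 3.79 ± 0.07, in the same order. Of 7 measured of 9 melanocyte and Schwann cell markers, 1 rose, Mlana, at 9.10 ± 0.61 in old and 6.23 ± 0.59 in young mice (SD, n = 4 each). The list's mean lay between 5.85 and 6.04 in old and between 5.33 and 5.60 in young mice, but its median difference was -0.005, with 3 markers higher and 4 lower in old mice. Of 8 measured of 11 mural and muscle markers, 1 rose, Kcnj8, and the mean lay between 5.68 and 5.77 in old and between 5.48 and 5.62 in young mice, with a median difference of 0.068. The mean of 11 leukocyte markers, of which none was called in limma (2 below 0.05 before adjustment), lay between 5.38 and 5.43 in old and between 5.23 and 5.37 in young mice. Among all genes, 1.82% rose, 2.15% fell and 15.1% lay below 0.05 before adjustment in limma. The part of these marker lists in the results was not tested either. Cd24a, whose product the sort selected against, averaged 5.33 ± 0.64 in old and 8.07 ± 0.14 in young mice (SD, n = 4 each). The brightest probe set of Pdgfra was dim, at 4.47 ± 0.28 in old and 5.06 ± 0.25 in young mice (SD, n = 4 each).

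Members differed in the shared shift by the size of the encoded protein. The 9 members with the smallest proteins (Rpl41, Rpl39, Rpl39l, Rps29, Rps28, Rps21, Rps27l, Rpl37a and Rpl37) and the 9 with the largest (Rpl4, Rpl3l, Rpl3, Rplp0, Rpl6, Rpsa, Rps2, Rpl7 and Rpl7a) were taken from known protein sizes, after the values were seen, and are described without a test. All 9 of the smallest had a negative old minus young difference on their brightest probe sets, with a median of -0.18. Of the 9 largest 4 were negative, with a median of 0.028, and the dim Rpl3l was among the positive. Dimmer probe sets of Rpl37 and Rpl39 differed by 0.0525 and 0.015, while the remaining sets of the smallest were negative. Without young replicate 4 the median of the smallest was -0.097, and all 9 stayed negative, while leaving out the other mice in turn gave 8 or 9 negative. Without young replicate 2 the median of the largest turned to -0.0042.

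By mouse, the smallest proteins' genes had median deviations of -0.19, -0.21, 0.064 and -0.04 in old replicates 1 to 4 and of -0.028, 0.011, 0.053 and 0.36 in young replicates 1 to 4. They were lowest in old replicates 1 and 2 and highest in young replicate 4. The largest proteins' genes stayed between -0.0087 and 0.078 in old mice and between -0.019 and 0.031 in young mice. The median spread within the ages (pooled SD) was 0.16 for the smallest and 0.077 for the largest, beside 0.10 for all members and 0.14 for all genes.

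**Figure D5:**
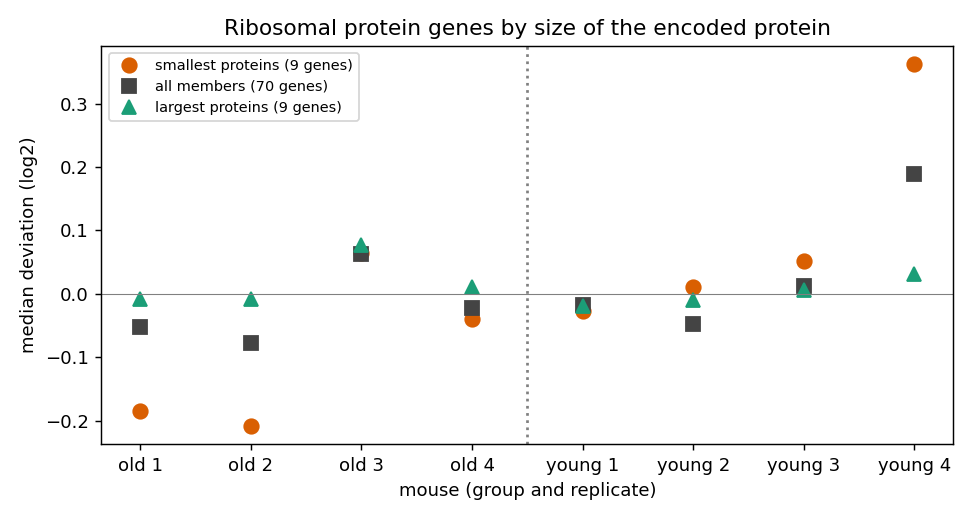
Median deviation (log2, vertical axis) of the genes of the 9 smallest proteins (circles), all 70 members (squares) and the 9 largest proteins (triangles) in each mouse, old left of the dotted line and young right. Circles range from -0.21 to 0.36 and triangles from -0.019 to 0.078.

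Ribosomal protein genes have many processed pseudogenes and close copies, and probe sets differ in how well they part them. Of the 133 probe sets of members, 44 end in _x_at and 7 in _s_at, which mark probes shared with other transcripts. Among the 34 members with several probe sets, the differences spread over a median range of 0.15, and 16 members had probe sets of opposite sign. With each probe set tested on its own, 0 of 133 passed in limma, where 3.29% of 28898 did. At an unadjusted p under 0.05 stood 15 of the 133, beside 15.1% of all genes on their brightest probe sets. The lowest adjusted p, 0.0599, was in Rpl22, a large subunit protein that also binds viral and cellular RNA, whose second probe set, ending in _s_at, differed by 0.36 while the brightest differed by -0.13. With the title number block that second set passed (limma adjusted p = 0.0409), as did 1 of the 3 sets of Rpl37a (-0.35, limma adjusted p = 0.0235).

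The lists of genes that work with the ribosome differed in how many genes passed. Of 56 measured genes of ribosome assembly and the nucleolus, 3 rose and none fell, beside 1.82% of all genes that rose and 2.15% that fell. The median difference was 0.098, with 37 positive and 19 negative differences. Before adjustment, 12 of the 56 (21.4%) lay below 0.05 in limma, against 15.1% of all genes. Nop58, a core protein of box C/D snoRNPs, which guide methylation of ribosomal RNA, averaged 10.25 ± 0.25 in old and 9.52 ± 0.18 in young mice (SD, n = 4 each). All old mice were above all young mice (0.73 ± 0.13, SE; limma adjusted p = 0.0155).

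Nop14, needed to form the small subunit, rose by 0.66 ± 0.08, and Utp4, of the small subunit processome, by 0.58 ± 0.09 (SE; limma adjusted p = 0.00177 and 0.00749). These 3 genes kept their calls when any 1 mouse was left out, with Nop58 at 0.0497 without old replicate 3. Of 12 genes of RNA polymerase I and its factors, which make ribosomal RNA, 1 fell, beside 2.15% of all genes. This was Znrd1, a small subunit of the enzyme, lower by 0.70 ± 0.16 (SE, limma adjusted p = 0.0393). Its limma adjusted p reached 0.114 without old replicate 2 and lay above 0.05 in 7 of the 8 leave-one-out fits.

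Of 28 initiation factors 1 rose, beside 1.82% of all genes. This was Eif1a, which helps to scan for the start codon, higher by 0.52 ± 0.11 (SE, limma adjusted p = 0.0272). Its adjusted p lay above 0.05 in 4 of the 8 leave-one-out fits, and reached 0.0816 without old replicate 4. None of 9 elongation factors passed (0 at an unadjusted p under 0.05 in limma, against 15.1% of all genes), with a median difference of 0.065. Eef1a1, which brings aminoacyl-tRNA to the ribosome, averaged 12.70 ± 0.04 in old and 12.69 ± 0.02 in young mice (SD, n = 4 each).

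None of 5 measured ribosome partners outside the naming rule passed in limma (0 at an unadjusted p under 0.05, against 15.1% of all genes). Fau, whose product releases a small subunit protein, averaged 10.27 ± 0.08 in old and 10.26 ± 0.15 in young mice (SD, n = 4 each), and young replicate 4 was its highest mouse (10.47). None of 25 mTOR and oligopyrimidine mRNA regulators passed in limma, and their median difference was -0.073. At an unadjusted p under 0.05 stood 6 of them, or 24%, against 15.1% of all genes.

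Mitochondrial ribosomal proteins, which form a separate ribosome, gave 2 of 73 lower in old mice and none higher. Among all genes, 2.15% were lower and 1.82% higher. The median difference of the list was -0.11. Mrpl36 and Mrpl53 fell by 0.45 each (SE 0.10 each; limma adjusted p = 0.043 and 0.0394), and their adjusted p lay above 0.05 in 6 and 8 of the 8 leave-one-out fits (up to 0.117 without young replicate 3 for Mrpl36 and 0.118 without old replicate 2 for Mrpl53). The list's median deviations were -0.30, -0.11, 0.099 and 0.11 in old replicates 1 to 4 and 0.073, -0.015, 0.11 and 0.096 in young replicates 1 to 4, so that old replicate 1 stood lowest and young replicate 4 not highest.

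Beside Rps27l, 9 genes around p53 and ribosomal stress were measured, of which 1 rose and 1 fell. Among all genes, 1.82% rose and 2.15% fell. Before adjustment, 5 of the 9 (55.6%) lay below 0.05 in limma, against 15.1% of all genes. Mdm2, to which free Rpl11 is known to bind, had 9.93, 9.91, 9.95 and 9.94 in old mice and 10.61, 10.52, 10.69 and 10.54 in young mice. It fell by 0.66 ± 0.06 (SE, limma adjusted p = 0.00074). Cdkn2a, which encodes the cell cycle inhibitors p16 and p19Arf, rose by 0.82 ± 0.15 (SE, limma adjusted p = 0.0138). It read 5.93, 6.39, 6.13 and 6.46 in old mice and 5.61, 5.51, 5.45 and 5.07 in young mice. The young values lay near 5.10, the median of all probe sets' means. Mdm2 and Cdkn2a stayed past the threshold when any 1 mouse was left out, with Cdkn2a at 0.0478 without old replicate 2. Other p53 targets had differences of both signs and did not pass: Phlda3 -0.59 (limma adjusted p = 0.0808), Zmat3 -0.33, Ccng1 -0.25, Bbc3 -0.21 and Cdkn1a 0.18.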

How the data were processed

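Expression was measured in sorted dermal fibroblasts of 4 old and 4 young mice, 1 array per mouse. The values are log2 expression per probe set as deposited; the submitters' processing notes name RMA and affy, without versions. RMA corrects background, equalises the arrays' distributions and summarises probes. The table held 45141 probe sets, array medians lay between 5.06 and 5.14, and no 2 arrays were identical. Precision is limited by the number of arrays. Symbols came from the platform annotation (28898 probe sets with 1 symbol, 551 with several, 15692 with none), and all 70 member symbols matched the RefSeq gene table (GRCm38.p6).

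Old and young were compared over all 17097 genes by limma 3.58.1 under R 4.3.3 (lmFit, then eBayes, 2-sided), with Benjamini-Hochberg adjustment and a threshold of 0.05. On simulated arrays of these genes, old against young, the test found 4%, 62%, 90% and 100% of 50 genes changed by 0.25, 0.5, 1 and 2 on the log2 scale, and 4.48% of its calls were false. The simulation drew each gene independently from a normal distribution, without the shared movement of genes seen in the real arrays. Its rates hold for that setting alone. Members and lists were chosen with earlier results of these data known. Named members are those past the threshold, the 8 largest differences in each direction, the paralogs, the P-stalk, the 3 widest spreads and the 3 smallest differences; of other lists, all genes past the threshold (at most 5 each) are named. Further members (Rpl37a, Rpl7a, Rpl11, Rpl22, X-linked and size groups) and list genes were picked with their values in view. The study took 2 old and 2 young mice per day, but the labels do not tie mice to days; runs of title numbers served as an alternative block.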

Additional observations from a re-analysis of the deposited data

Results flagged for a closer look

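In 3 of 60 groups of 4 mice examined, over the named members and the member medians, a single mouse lay far from the other mice by Dixon's criterion, which chance alone meets in about 1 of 20 groups. Rps14 read 11.49 in old replicate 3, beside 11.37 to 11.39 in the other old mice. Rplp2 read 10.82 in old replicate 3, beside 10.58 to 10.62 in the other old mice. Rps2 read 12.84 in old replicate 1, beside 12.90 to 12.91 in the other old mice.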

How the results depend on the processing

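Under 22 alternatives (other priors, array weights, a filter on dim genes, other probe sets, other scalings, a looser threshold, the title number block, single runs and single mice left out), 20 gave a test and the single runs gave values alone. In those 20, 0 members rose, and members fell only with the title number replicate block, where 1 did (Rps27l). Without the block, the lowest adjusted p values were 0.0603 (Rps15a, prior by mean level) and 0.0599 (Rpl22, every probe set on its own). The median difference of the members was negative wherever it was recomputed, from -0.079 to -0.0071, both ends being fits without 1 mouse. At the threshold of 0.05, calls over all genes ran from 427 without old replicate 2 to 952 with array weights, beside 679. The looser threshold of 0.1 gave 1082 calls over all genes. Of 543 values of the 25 named members, 513 kept their sign and, where tested, their side of the threshold (the 50 values within single runs were compared by sign alone), 1 passed newly and 29 changed sign, none of them called. Array weights gave 0.047 for Rpl22l1, 0.009 for Rpl39l, 0.14 for Rpl14, 0.020 for Rpl31, 0.0029 for Rps2 and 0.011 for Rps7. The mean of probe sets gave 0.033 for Rps10, and the dimmest probe set above the median level 0.32 for Rps10 and 0.0075 for Rps2. Within the first run of title numbers the values were 0.005 for Rplp1, 0.06 for Rpl31 and 0.005 for Rps7, and within the second 0.115 for Rpl39l, 0.02 for Rpl14 and 0.02 for Rps2. With single mice left out, values ran from -0.095 to 0.047 for Rpl39l, -0.046 to 0.011 for Rplp1, -0.13 to 0.013 for Rplp2, -0.34 to 0.055 for Rpl14, -0.038 to 0.042 for Rpl31, -0.019 to 0.011 for Rps2 and -0.027 to 0.013 for Rps7. The cause was not tested. Rps15a and Rpl3l lie below the median level of all probe sets, where signal over background limits any reading.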

Other observations

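Outside the naming rule, 15 probe sets with several symbols included a ribosomal protein symbol and could not be given to a single gene. Their old minus young differences ran from -0.10 to 0.44 with a median of 0.078, and 1 was negative.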
